A study of Homo sapiens with 6 samples.

Results

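The genes described here are 9 enzymes, PGLS, PGD, RPIA, RPE, TKT, TALDO1, ME1, IDH1 and UGDH. All but UGDH, which makes UDP-glucuronate, belong to NADPH supply or the pentose phosphate pathway. The 9 were taken by symbol from the 57133 symbols of a count table. All 9 had a row in the table. They were chosen by the log2 fold changes of the same libraries, so their differences between conditions are a description and carry no test. The RNA came from T98G, an established human glioblastoma (GBM) cell line in which CBX8, a chromobox subunit of Polycomb repressive complex 1, had been knocked out with Cas9. CBX8 KO cells carrying the empty TetO-FUW vector gave 3 libraries, and CBX8 KO cells carrying the vector with V5-tagged WT CBX8 gave the 3 WT CBX8 re-expression libraries. Both lines carry the CBX8 knockout and the rtTA transactivator, were selected with puromycin and hygromycin, and received doxycycline at 1 μg/ml for 72 h. The genotype label of the re-expression libraries reads wild type, but their titles and the methods of the study describe CBX8 put back into KO cells, and the titles were followed. Whether a line was 1 clone is not given in the sources used here. The 2 lines were transduced and selected separately, so an effect of CBX8 and a difference between the lines cannot be told apart. T98G cells with their own CBX8 were not analysed here.

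The pentose phosphate pathway runs beside glycolysis. Its oxidative branch turns glucose 6-phosphate into ribulose 5-phosphate and reduces NADP to NADPH, and its nonoxidative branch interconverts sugar phosphates so that ribose can be made for nucleotides or carbon returned to glycolysis. Cytosolic malic enzyme (ME1) and isocitrate dehydrogenase (IDH1) are further sources of NADPH, which cells spend on glutathione and thioredoxin reduction and on lipid synthesis. UGDH oxidizes UDP-glucose to UDP-glucuronate, a building block of glycosaminoglycans. Several of these enzymes are known targets of the transcription factor NRF2, which binds antioxidant response elements (AREs).

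The promoters are shown first because NRF2 target genes are usually recognized by an ARE core, TGACNNNGC. RefSeq promoter windows (GRCh38.p14, 250 bases before to 50 bases after an annotated start) were found for all 9 genes, with 2 windows for IDH1, and their sequences were identical to hg38. The core was searched on both strands, and 13.3% of the 35116 RefSeq windows hold at least 1 match. Of the 9 genes, 4 had a match, namely PGD, IDH1, RPE and ME1. This count is by gene and the 13.3% is by window, so the 2 are not on the same unit. The windows of the 9 genes had a GC content between 59.7% and 75%, where the median over the RefSeq windows was 58.7%. The sites are printed on the strand of the gene with the match in capitals, and a match on the opposite strand is printed as its reverse complement. IDH1 had its match in only 1 of its 2 windows. The RefSeq starts used here are not the GENCODE gene boundaries given below. The PGD and IDH1 sites, though upstream of a RefSeq start, lie inside those GENCODE spans.
PGD, chr1:10398843-10398891, match starting 201 bases upstream of the start, opposite strand: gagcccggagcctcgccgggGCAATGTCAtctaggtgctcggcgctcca
IDH1, chr2:208255186-208255234, 143 bases upstream, gene strand: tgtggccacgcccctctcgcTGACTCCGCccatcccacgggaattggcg
RPE, chr2:210002467-210002515, 151 bases upstream, gene strand: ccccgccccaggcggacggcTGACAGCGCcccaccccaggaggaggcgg
ME1, chr6:83431160-83431208, 137 bases upstream, gene strand: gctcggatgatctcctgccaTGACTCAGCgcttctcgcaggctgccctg
ME1, chr6:83431012-83431060, 11 bases downstream, opposite strand: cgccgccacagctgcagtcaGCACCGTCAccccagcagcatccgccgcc
A match describes the letters of the window and no binding was measured. The windows of TKT, TALDO1, UGDH, RPIA and PGLS do not hold these letters, and bases outside the windows were not searched. Genes called lower upon re-expression are found both with a match (PGD, IDH1) and without (TKT, UGDH, TALDO1, RPIA). Of the other genes with a match, RPE was not called and ME1 had too few counts to test. No difference by match was tested.

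Total counts per library lay between 7950190 and 8659796, and 14461 genes were tested. CBX8 had between 10.6 and 12.4 CPM (CPM, each count scaled to a TMM-adjusted library size) in the CBX8 KO libraries and between 3309 and 3588 CPM upon re-expression, which matches the labels. Counts from the vector and from the endogenous gene cannot be separated. Without cells that kept their own CBX8, the level upon re-expression cannot be set against a native one. VIM, CD44 and EGFR, which glioblastoma lines usually express, were detected in all 6 libraries, and CD44 fell upon re-expression, by 0.21 on the log2 scale (edgeR adjusted p = 0.0097), and its part in the results below was not tested. SOX2 and S100B had 0 counts in every library and NES at most 4. GFAP and OLIG2 had between 13 and 17 counts in CBX8 KO and between 19 and 38 upon re-expression, so the glial and progenitor markers were low or at 0 in this line. Of markers of blood, endothelial and epithelial cells and of neurons, PTPRC, PECAM1, CDH5, EPCAM and RBFOX3 had at most 4 counts, and SYT1 had between 24 and 35. The labels number the libraries and do not say whether they come from separate cultures, so each SD and p-value measures spread between libraries. In these bulk samples, a change in RNA per cell cannot be told apart from a change in the share of cells that express a gene.

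Levels of different enzymes were compared as CPM per kb of the GENCODE canonical transcript. In the CBX8 KO libraries the highest were TALDO1 with 332 ± 8.19 CPM per kb (SD, n = 3) and TKT with 317 ± 13.1 CPM per kb, whose libraries overlapped. PGD followed with 237 ± 9.77 CPM per kb. A second tier held IDH1 with 71.7 ± 2.6 CPM per kb, UGDH with 60.2 ± 5.71 CPM per kb and RPE with 51.2 ± 0.859 CPM per kb, and in this tier no neighbours overlapped. PGLS had 30.5 ± 2.52 CPM per kb and RPIA 8.47 ± 0.763 CPM per kb, and ME1 was near 0. Upon WT CBX8 re-expression the order was the same except that RPE, with 48.1 ± 1.26 CPM per kb, stood above UGDH, with 39.6 ± 2.01 CPM per kb, and that the libraries of IDH1 and RPE overlapped. TKT, with 237 ± 0.826 CPM per kb, then lay below TALDO1, with 284 ± 10.7 CPM per kb, with no overlap. The ranks depend on the transcript length taken for each gene, from 1008 bases for PGLS to 3338 bases for ME1.

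**Figure D1:**
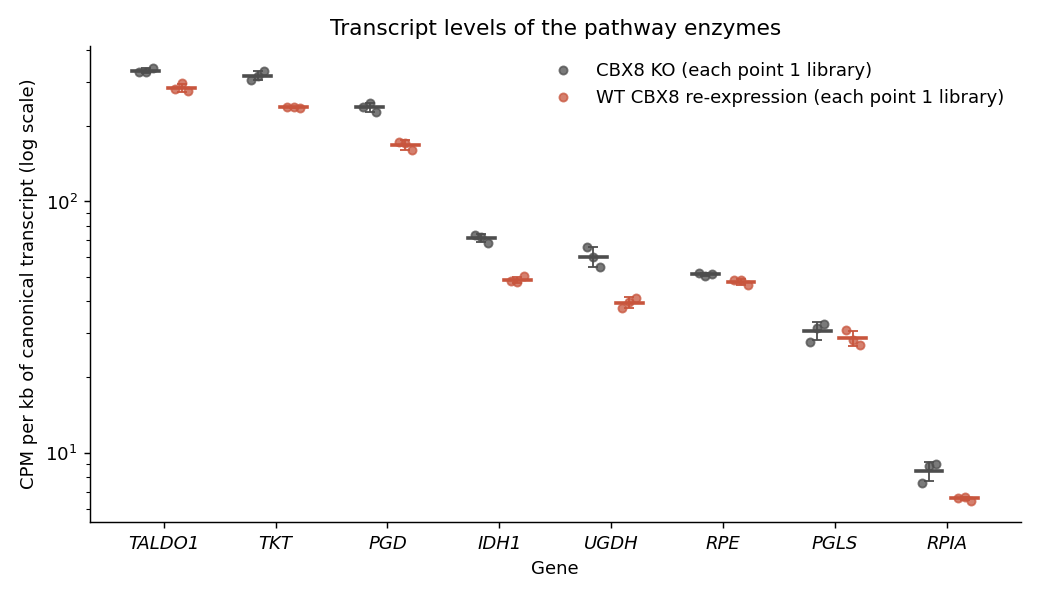
CPM per kb of canonical transcript on a log axis for 8 of the enzymes, each point 1 library, horizontal lines means and error bars SD (n = 3). ME1, with at most 3 counts in a library, is not drawn; the re-expression points lie below the CBX8 KO points for every gene drawn except PGLS, where they overlap.

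Of the oxidative branch, PGLS, which hydrolyses 6-phosphogluconolactone, had similar levels in both conditions. PGLS (ENSG00000130313.7, hg38 chromosome 19 from 17511636 to 17521288) had 27.9, 31.6 and 32.8 CPM in CBX8 KO and 31, 28.4 and 27.1 CPM upon re-expression. The conditions overlapped, and the log2 fold change (re-expression over CBX8 KO) was -0.09 (standard error 0.09, 95% interval -0.28 to 0.1), so a fall of up to 17.8% lies within the interval. PGD, 6-phosphogluconate dehydrogenase, which releases CO2 and makes NADPH, was lower upon re-expression. PGD (ENSG00000142657.21, chromosome 1 from 10398592 to 10420511) had 538, 558 and 514 CPM in CBX8 KO and 393, 387 and 363 CPM upon re-expression. The conditions did not overlap, and the log2 fold change was -0.49 (standard error 0.05), a change of -29% (95% interval -33.9% to -23.8%).

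In the nonoxidative branch, the carbon-shuffling enzymes TKT and TALDO1 were lower upon re-expression, RPIA was lower with few counts, and RPE differed little. TKT, transketolase (ENSG00000163931.17, chromosome 3 from 53224712 to 53256052), had 908, 950 and 987 CPM in CBX8 KO and 711, 713 and 708 CPM upon re-expression. Its log2 fold change was -0.42 (standard error 0.05). The re-expression libraries of TKT were nearly equal, with a coefficient of variation of 0.348%, and all lay below CBX8 KO. TALDO1, transaldolase (ENSG00000177156.11, chromosome 11 from 747415 to 765012), had 391, 393 and 409 CPM in CBX8 KO and 336, 355 and 330 CPM upon re-expression. Its conditions did not overlap, and its log2 fold change of -0.23 (standard error 0.05) is a change of -14.5%, against -25% for TKT. Within each library, the ratio of TKT to TALDO1 counts per kb was 0.954 ± 0.021 in CBX8 KO and 0.837 ± 0.028 upon re-expression (SD, n = 3 each), so TKT was lower also relative to TALDO1.

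RPIA and RPE both act on ribulose 5-phosphate, as isomerase and epimerase. RPIA (ENSG00000153574.9, chromosome 2 from 88691673 to 88750929) had 109, 135 and 127 counts in CBX8 KO and 102, 106 and 98 counts upon re-expression, or 13.8, 16 and 16.3 CPM against 12, 12.1 and 11.7 CPM. The conditions did not overlap, and the log2 fold change was -0.36 (standard error 0.12, 95% interval -0.6 to -0.13). It passed FDR < 0.05 with all libraries but not with library size scaling, DESeq2 or the replicate block, nor without CBX8 KO replicate 2 or 3 or any 1 of the re-expression libraries, and its log2 fold change then lay between -0.38 and -0.31. RPE (ENSG00000197713.15, chromosome 2 from 210002565 to 210022260) had 165, 160 and 164 CPM in CBX8 KO and 155, 155 and 148 CPM upon re-expression. The RPE libraries did not overlap, but the log2 fold change of -0.09 (standard error 0.05, 95% interval -0.19 to 0.01) did not pass FDR < 0.05. Exons of RPE share 840 bases with KANSL1L on the other strand, and KANSL1L had between 264 and 323 counts. Reads of RPE could also fall on RPEL1, a partial copy on chromosome 10 that had between 2 and 5 counts. That locus matches 53.3% of the bases of the RPE transcript, at 97% identity. A locus on chromosome 3 matches 65.6% of them, at 78.7% identity.

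Beside PGD, the list held ME1 and IDH1 as NADP-linked dehydrogenases of the cytosol, of which ME1 was near 0 and IDH1 was lower upon re-expression. ME1, malic enzyme (ENSG00000065833.9, chromosome 6 from 83210402 to 83431051), had 1, 1 and 2 counts in CBX8 KO and 0, 3 and 3 counts upon re-expression. It did not pass the filter on low counts, and a count of 0 allows up to 3 counts, or 0.353 CPM in that library, so no difference was detectable at this depth. IDH1 (ENSG00000138413.14, chromosome 2 from 208236229 to 208266074) had 171, 168 and 159 CPM in CBX8 KO and 112, 111 and 117 CPM upon re-expression. The IDH1 conditions did not overlap, and the log2 fold change was -0.55 (standard error 0.05), a change of -31.7% (95% interval -36.6% to -26.5%).

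IDH2, the mitochondrial counterpart of IDH1, had 151, 162 and 155 CPM in CBX8 KO and 144, 145 and 144 CPM upon re-expression. Its log2 fold change of -0.11 (standard error 0.05) did not pass FDR < 0.05 (edgeR adjusted p = 0.15). The ratio of IDH1 to IDH2 counts per kb was 1.3, 1.19 and 1.18 in the CBX8 KO libraries and 0.893, 0.881 and 0.935 upon re-expression. These ratios did not overlap between the conditions, which restates the fold change of IDH1, known when IDH1 was chosen, beside the smaller one of IDH2. On which side of 1 they fall depends on the transcript lengths used, 2318 bases for IDH1 and 2658 bases for IDH2. A locus on chromosome 6 matches 82.5% of the bases of the IDH1 transcript and one on chromosome 18 matches 77.8% of those of PGD, so a part of their reads could be placed there.

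UGDH had the lowest log2 fold change of the 9 genes. UGDH (ENSG00000109814.12, chromosome 4 from 39498755 to 39528311) had 200, 183 and 166 CPM in CBX8 KO and 114, 121 and 126 CPM upon re-expression. The conditions did not overlap, although the CBX8 KO libraries were spread with a coefficient of variation of 9.48%. The log2 fold change was -0.61 (standard error 0.06), a change of -34.3% (95% interval -39.8% to -28.4%), and 1.55% of all tested genes had a lower one. UGP2, which makes the UDP-glucose that UGDH oxidizes, did not pass FDR < 0.05 (log2 fold change -0.07, edgeR adjusted p = 0.48). UGP2 was singled out after its value was seen. The ratio of UGDH to UGP2 counts per kb was 1.34 ± 0.14 in CBX8 KO and 0.923 ± 0.078 upon re-expression (SD, n = 3 each). This ratio restates the fold change of UGDH, known when UGDH was chosen, beside that of UGP2.

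**Figure D2:**
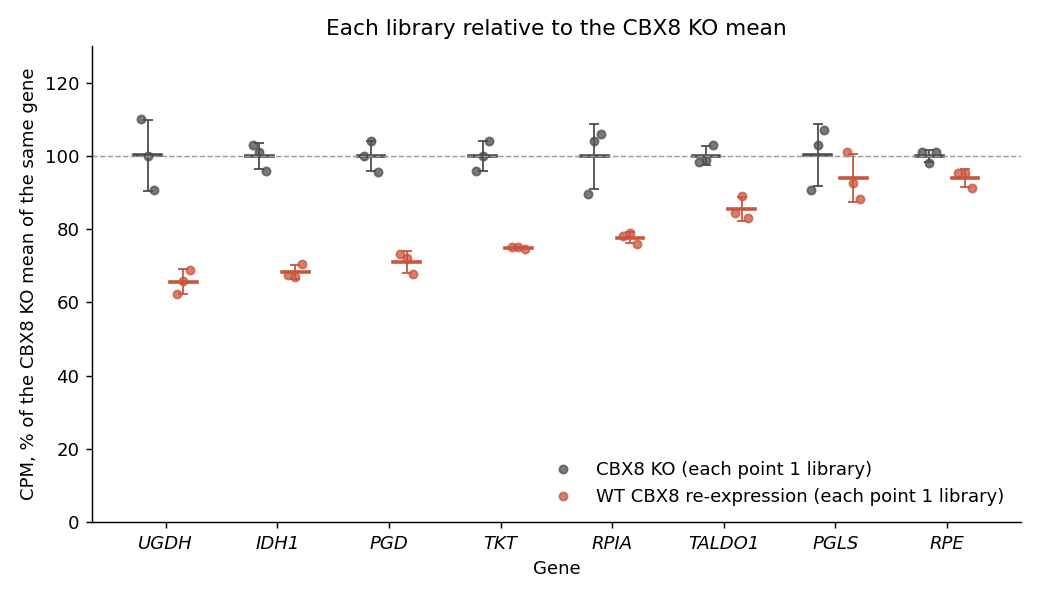
CPM of each library as a percentage of the CBX8 KO mean of the same gene, for 8 enzymes, each point 1 library, horizontal lines means and error bars SD (n = 3). The re-expression libraries sit between 62.2% and 68.9% for UGDH and between 88.3% and 101% for PGLS.

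**Figure D3:**
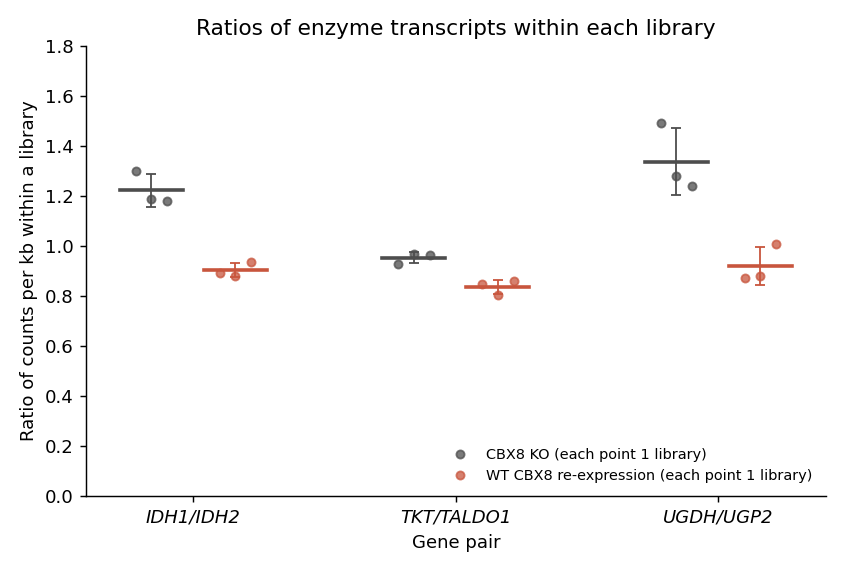
Ratios of counts per kb within each library for 3 pairs of genes, each point 1 library, horizontal lines means and error bars SD (n = 3). For each pair the re-expression libraries lie below the CBX8 KO libraries. The ratios restate fold changes that were known when genes of these pairs were chosen.

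Over the 9 genes, 8 passed the filter and all 8 had a negative log2 fold change, with a median of -0.39 beside 0.0049 over all tested genes. At FDR < 0.05, 6 were lower upon re-expression and 0 were higher, where 6.63% of all tested genes were lower and 6.23% higher. Those shares are not matched for abundance. By mean log2 CPM, the 8 stood above 38.4% (RPIA) to 99.4% (TKT) of tested genes. For 7 of the 8, the highest re-expression library was below the lowest CBX8 KO library, where 14.4% of all tested genes did so. Because the same contrast was known when the genes were chosen, these counts describe the list and carry no further weight. Together the 9 genes took between 0.234% and 0.242% of all counts in the CBX8 KO libraries and between 0.185% and 0.192% upon re-expression.

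Of 10 other genes of the pathway and of ribose phosphate use that were tested, 1 fell and 1 rose, both in ribose phosphate use. Among all tested genes, 6.63% fell and 6.23% rose. The list held 13 genes around ribose phosphate and sugar phosphate exchange, of which TKTL1, TKTL2 and RPEL1 had at most 5 counts and were not tested. PRPS2, which makes phosphoribosyl pyrophosphate from ribose 5-phosphate, had 84.4, 78.1 and 77.4 CPM in CBX8 KO and 69.5, 65.5 and 67 CPM upon re-expression. PRPS2 fell by 0.25 on the log2 scale (standard error 0.06, edgeR adjusted p = 0.0055). PRPSAP2, an associated protein of the same synthetase, rose by 0.32 (standard error 0.1, edgeR adjusted p = 0.034). PRPSAP2 lost its call with DESeq2 (adjusted p = 0.14) and without CBX8 KO replicate 1 (0.13) or 3 (0.051) or re-expression replicate 1 (0.079) or 2 (0.13). H6PD, the hexose-6-phosphate dehydrogenase of the endoplasmic reticulum, did not pass (0.21, edgeR adjusted p = 0.28). The median log2 fold change of the 10 was 0.01. This list and those that follow were chosen with earlier results of these data known, so their counts are descriptions.

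A list of 15 other genes held sources of NADPH and NADP and further enzymes of folate one-carbon metabolism around them. Of these, 12 were tested, 2 fell and 0 rose, with a median log2 fold change of -0.11. Among all tested genes, 6.63% fell and 6.23% rose. MTHFD1L and MTHFD1, enzymes of folate one-carbon metabolism in mitochondria and cytosol, fell by 0.27 (standard error 0.07, edgeR adjusted p = 0.016) and by 0.16 (standard error 0.05, edgeR adjusted p = 0.046). Neither call held without CBX8 KO replicate 2, where edgeR's adjusted p was 0.093 and 0.3, or without re-expression replicate 2, with 0.051 and 0.19. Without CBX8 KO replicate 1 they were 0.097 and 0.082, and that of MTHFD1 was 0.072 without re-expression replicate 1 and 0.066 without replicate 3. ME2, a mitochondrial malic enzyme, had between 42.3 and 44.5 CPM in CBX8 KO and between 39.4 and 41.4 CPM upon re-expression. It did not pass (-0.11, edgeR adjusted p = 0.4). ME3 had at most 1 count, so ME2 was the malic enzyme with measurable transcript in these cells. Whether ME2 used NAD or NADP here was not measured, so it is not read as a source of NADPH.

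Of 20 enzymes that spend NADPH, 18 were tested, and 5 fell while 0 rose, with a median log2 fold change of -0.06. The shares over all tested genes were 6.63% lower and 6.23% higher. NQO1, a quinone reductase, had 1936, 2068 and 2004 CPM in CBX8 KO and 1384, 1328 and 1365 CPM upon re-expression. NQO1 fell by 0.56 (standard error 0.05, edgeR adjusted p = 6.3e-09). GSR, glutathione reductase, fell by 0.46 (standard error 0.05), and SRD5A1, a steroid 5-alpha reductase, fell by 0.46 (standard error 0.06). TXNRD1, cytosolic thioredoxin reductase, fell by 0.27 (standard error 0.05). FASN, fatty acid synthase, fell by 0.21 (standard error 0.05, edgeR adjusted p = 0.0097), but not past the threshold with library size scaling (0.059) or without CBX8 KO replicate 3 (0.083) or re-expression replicate 2 (0.063). The other 13 did not pass the threshold.

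Of 21 genes around UDP-glucose and glucuronate, 18 were tested, and 1 fell and 3 rose, with a median log2 fold change of 0.05. Among all tested genes, 6.63% fell and 6.23% rose. SLC35D1, which carries UDP-glucuronate into the endoplasmic reticulum, fell by 0.24 (standard error 0.06, edgeR adjusted p = 0.012). XYLT1, which starts glycosaminoglycan chains on proteins, rose by 0.21 (standard error 0.06, edgeR adjusted p = 0.028). EXT2 and EXT1, the heparan sulfate polymerases, rose by 0.2 (standard error 0.05, edgeR adjusted p = 0.014) and by 0.16 (standard error 0.05, edgeR adjusted p = 0.034). None of these 4 calls held without re-expression replicate 2 (adjusted p between 0.052 and 0.12) or CBX8 KO replicate 1 (between 0.061 and 0.11). Without re-expression replicate 3 those of XYLT1, EXT2 and EXT1 were 0.18, 0.08 and 0.13, without CBX8 KO replicate 2 those of XYLT1 and EXT1 were 0.086 and 0.071, and without CBX8 KO replicate 3 that of EXT1 was 0.082.

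Of 9 regulators of the NRF2 pathway, all were tested, and 1 fell and 0 rose. The shares over all tested genes were 6.63% lower and 6.23% higher. NFE2L2, which encodes NRF2, had 582, 556 and 525 CPM in CBX8 KO and 534, 521 and 527 CPM upon re-expression. The conditions overlapped, and the log2 fold change was -0.07 (standard error 0.05, 95% interval -0.17 to 0.03). KEAP1, the adaptor that targets NRF2 for degradation, had a log2 fold change of 0.01 (95% interval -0.11 to 0.14). MAFG, a small MAF partner of NRF2, was the one that fell, by 0.21 (standard error 0.06, edgeR adjusted p = 0.017). MAFG lost its call with DESeq2 (0.052) and without CBX8 KO replicate 2 (0.052) or 3 (0.1) or re-expression replicate 2 (0.099). Protein amounts and NRF2 activity were not measured in these libraries.

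**Figure D4:**
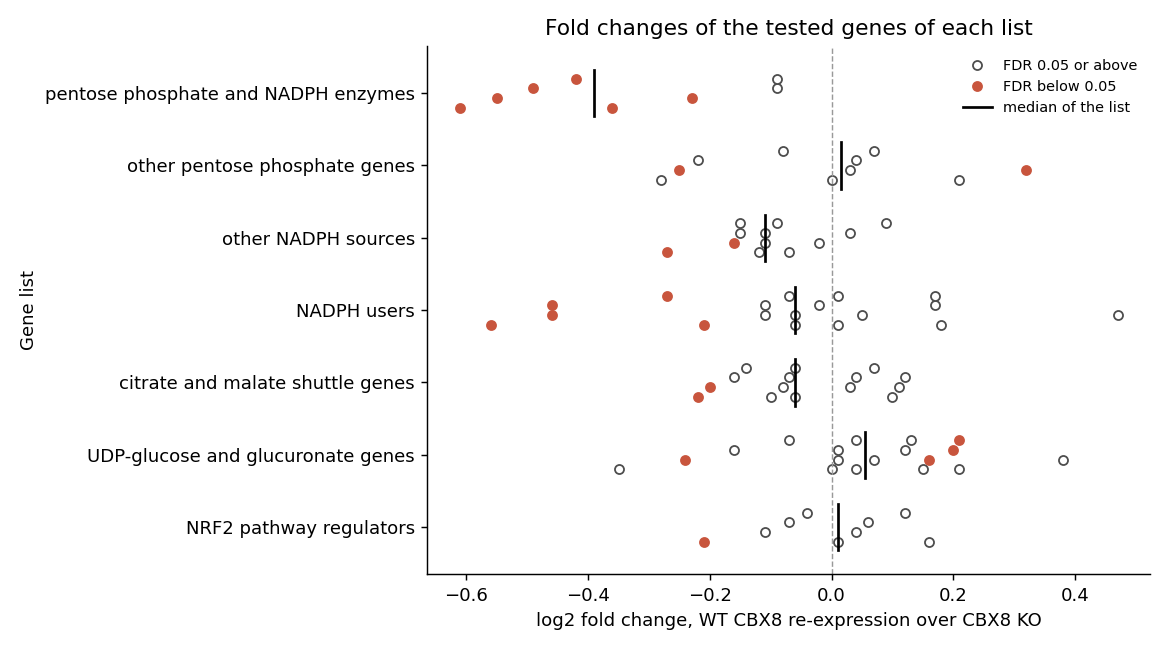
Log2 fold change of each tested gene in 7 lists, filled where FDR < 0.05 and open otherwise, with a vertical line at the median of the list. Filled points of the first list lie between -0.61 and -0.23, and the median of the other lists lies between -0.11 and 0.05. The first list was chosen with these values known, and the other lists with earlier results of these data known.

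The genes whose pattern was most like that of the 9 enzymes were sought among 8467 genes whose mean log2 CPM reached 4. Likeness was Pearson's r over the 6 libraries with the mean of the standardized log2 CPM of the 8 tested enzymes, which mainly follows the difference between conditions. The highest were CCDC34 (r = 0.9986), PRDX1, a peroxiredoxin (0.9977), ALDOA, the glycolytic aldolase (0.9975), TRAP1, a mitochondrial chaperone (0.9971), and FTL, the ferritin light chain (0.9946). Their log2 fold changes lay between -0.65 for FTL and -0.27 for TRAP1.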

How the data were processed

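Poly(A) RNA of 6 T98G libraries was sequenced as paired-end reads by a sequencing provider, and the authors used Trimmomatic for trimming and HiSat2 for alignment to hg38. Per gene symbol, the values deposited by the authors are raw read counts. The counting program, annotation, strand setting and tool versions are not given in the sources used here, so how reads of overlapping genes or near copies were assigned is unknown here. Libraries were assigned from their titles. The filterByExpr function (edgeR 4.0.16 in R 4.3.3) kept 14461 of 57133 genes, and TMM set the library sizes. Both conditions were compared with the quasi-likelihood F-test of edgeR, and p-values were adjusted by Benjamini-Hochberg over the 14461 genes (FDR < 0.05). The study's methods name edgeR and this threshold, without the test. Each standard error is the size of the log2 fold change over the root of its F statistic. The biological coefficient of variation was 4.7%. The test was checked on simulated counts. Limits from a count of 0 (3 counts) cover counting error only.

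The members and lists were chosen with earlier results of these data known. The rule names all 9 members, CBX8, a few isoenzymes and regulators, up to 5 called genes per list with the largest change, and the 5 genes of most similar pattern. The results of 2 listed genes are not reported here, and the list counts leave them out. Gene models came from GENCODE release 44, promoters from RefSeq, and similar loci from minimap2 2.31, where at least 50% of a transcript's bases matched, at 63.2% to 97% identity. Tried beside these were scaling by RLE, upper quartile or library size, 2 filters, DESeq2 1.42.0, voom of limma 3.58.1, edgeR's exact test, the replicate block, FDR < 0.01, a GC and length correction, and each library left out in turn. Libraries of 1 condition differed beyond sampling noise (chi-square per degree of freedom 1.96 to 2.9).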

Additional observations from a re-analysis of the deposited data

How the results depend on the processing

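PGD, TKT, TALDO1, IDH1 and UGDH kept their direction and stayed under FDR < 0.05 under every alternative run, and PGLS and RPE stayed above it. The refits reuse the libraries by which these genes were chosen, so they show dependence on processing and carry no further weight. The 6 enzymes called lower became 5 or 6 with 1 library left out and none was called higher. The median log2 fold change of the 8 tested enzymes lay between -0.44 and -0.36. Of 480 refits of the named genes, 60 lost a call, 0 gained one and 4 changed sign, all of KEAP1, which had -5e-04 without the filter, -0.0291 after the GC and length correction and between -0.0138 and 0.0288 with 1 library left out. Genes lower and higher over all tested, 959 and 901, became 592 and 1400 with library size only, 569 and 489 at FDR < 0.01, and 635 to 851 and 593 to 792 with 1 library left out, lowest without re-expression replicate 2. DESeq2 called 502 higher. The share of calls that were lower was 51.6%, and 29.7% with library size only. That scaling gave a median log2 fold change of 0.06 over all tested genes, beside 0.005 with TMM, and -0.33 over the 8 enzymes. With it, the calls of MTHFD1L, MTHFD1, FASN, MDH2 and MAFG were lost (edgeR adjusted p between 0.051 and 0.21).

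Genes of the list around NADPH and NADP supply called lower were 1 with upper quartile scaling, voom or the replicate block. They were 0 with library size only, DESeq2 or FDR < 0.01, and 0 to 2 with 1 library left out. Other genes of the pathway and of ribose phosphate use called higher were 0 without the filter, with DESeq2, the replicate block or FDR < 0.01. They were 0 to 1 with 1 library left out. UDP-glucose and glucuronate genes called higher were 1 with DESeq2 or the GC and length correction, 0 at FDR < 0.01 and 0 to 3 with 1 library left out, and those lower were 2, 0 and 0 to 2 with the correction, FDR < 0.01 and 1 library left out. NRF2 regulators called lower were 0 with library size only, DESeq2 or FDR < 0.01 and 0 to 1 with 1 library left out. Citrate and malate genes called lower were 1 with library size only, 4 after the GC and length correction and 1 to 3 with 1 library left out. NADPH users called lower were 4 with library size only and 4 or 5 with 1 library left out. FDR < 0.01 lowers counts by construction, and for the others the cause was not tested.

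Libraries with the same replicate number did not deviate together (correlations -0.18, -0.3 and -0.14 over 8475 genes), so the numbers are not taken as pairs. Transcripts near 0 counts, such as ME1, are limited by depth.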

Other observations

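Citrate, isocitrate and malate link the mitochondria to the cytosolic NADPH enzymes, and 15 genes of these steps were all tested. Among all tested genes, 6.63% fell and 6.23% rose. Of these 15 genes, 2 fell upon re-expression and 0 rose, with a median log2 fold change of -0.06. Both encode mitochondrial enzymes of the citric acid cycle. CS, citrate synthase, had 360, 347 and 350 CPM in CBX8 KO and 295, 308 and 305 CPM upon re-expression, and fell by 0.22 (standard error 0.05, edgeR adjusted p = 0.0021). MDH2, mitochondrial malate dehydrogenase, fell by 0.2 (standard error 0.05, edgeR adjusted p = 0.0086), but not past the threshold without re-expression replicate 2 (0.061). ACLY, which makes cytosolic acetyl-CoA from citrate, did not pass (edgeR adjusted p = 0.2) and was named after its value was seen.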
